A study of Mus musculus with 80 samples.

Results

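Brown adipose tissue (BAT) of mice lacking both UCP1 and FGF21 was compared with BAT of mice lacking FGF21 alone, which asks how BAT transcripts differ with the loss of UCP1 when FGF21 is absent on both sides. The 5 BAT libraries whose genotype label reads UCP1/FGF12 double KO and the 5 labelled FGF21 KO were taken, 10 of the 80 libraries of the series. The label spells FGF12 where the breeding scheme combines the UCP1 and FGF21 deletions, and the group is called dKO here. Both groups were homozygous male mice on a C57BL/6J background. They were raised at 30 °C to an age of 10 to 12 weeks and then given a high-fat diet for 3 weeks at room temperature. FGF21 KO mice carried the Fgf21 deletion with an intact Ucp1 gene, and dKO mice carried both deletions after a cross of the single knockouts. No driver restricting either deletion to brown fat was named, so liver, white fat and the other tissues lacked the same genes. The 5 WT and 5 UCP1 KO BAT libraries, in which Fgf21 was intact, served as the comparator. The libraries were poly(A)-selected RNA of whole tissue, so that fewer cells of a type and less RNA per cell cannot be told apart. The labels do not tie libraries to individual mice, and p-values measure the spread between these libraries.

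UCP1 is the mitochondrial carrier protein of brown adipocytes that lets protons return to the matrix without making ATP, so that fuel oxidation yields heat. FGF21 is a secreted hormone that signals through FGF receptors together with the co-receptor beta-klotho and is released by liver and by stressed or activated fat. Mitochondrial or amino acid stress in a cell activates the integrated stress response, in which phosphorylation of eIF2alpha favors translation of the transcription factor ATF4 and thereby the transcription of genes for amino acid synthesis, uptake and tRNA charging. Fgf21 and Gdf15 are themselves known targets of this response.

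The targeted genes followed the labels. Ucp1 (chr8:83290352-83298452, mm10) had 5246, 6822, 5432, 6892 and 8074 CPM in the FGF21 KO libraries, CPM being counts scaled to a common TMM-adjusted library size. It had 1427, 1849, 1160, 1046 and 1883 CPM in the dKO libraries, which all lay below every FGF21 KO library. The log2 fold change of dKO against FGF21 KO was -2.14 (SE 0.25, adjusted p 1.0e-05). Between 40641 and 90118 Ucp1 counts per library remained in dKO, and counts over a whole gene do not show which part of it was transcribed. For Fgf21 no FGF21 KO library exceeded 2 counts and no dKO library exceeded 3. The same gene reached 7 to 10 counts in WT libraries and 353 to 1728 counts in those of UCP1 KO.

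Total counts were 31578724 to 49898435 per FGF21 KO library and 36388711 to 46513671 per dKO library. The brown adipocyte marker score, the mean log2(CPM + 0.1) of 8 markers, was 6.86 to 7.18 in FGF21 KO and 6.64 to 6.94 in dKO, and 0 of these markers were at 0. Skeletal muscle markers set libraries apart. The score of 10 fibre genes was 8.21, 8.51 and 8.43 in dKO libraries 1, 3 and 4, while dKO libraries 2 and 5 had 2.78 and 4.71 and the FGF21 KO libraries 1.36 to 5.03. None of the 10 muscle markers was called (summed level 30.5 to 445.6 CPM in FGF21 KO and 98.0 to 4823 CPM in dKO). Macrophage scores were 3.89 to 4.53 in FGF21 KO and 4.14 to 5.16 in dKO, pericyte scores 5.78 to 5.92 and 5.22 to 5.81, and Schwann cell scores 2.68 to 3.43 and 2.14 to 2.72. The lymph node score was -1.56 to -1.02 in FGF21 KO and -1.58 to 0.44 in dKO. In addition, 3 rows carrying only a sequence accession held 14.9 to 16.1% of the counts in FGF21 KO and 3.28 to 10.9% in dKO. Results below are therefore also given without the 4 BAT libraries with a muscle score above 8, which are dKO 1, 3 and 4 and UCP1 KO 2, or with the score as a covariate, where either changes them.

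**Figure D1:**
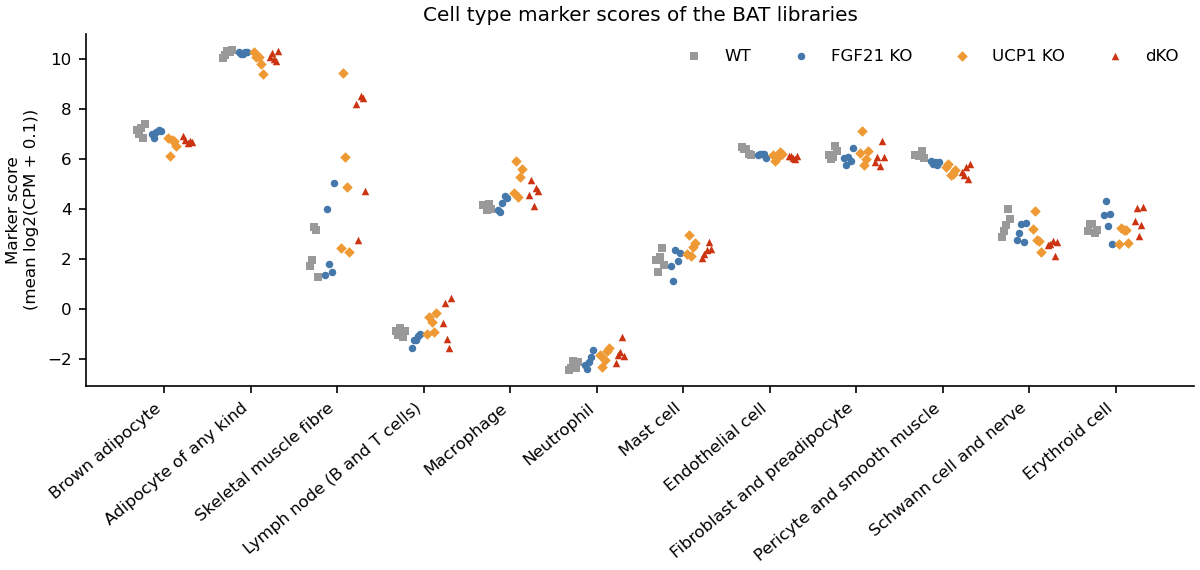
Marker scores of 12 cell types in the 20 BAT libraries, as the mean log2(CPM + 0.1) over the markers (y axis) for each cell type (x axis), 1 point per library. The skeletal muscle score spreads most, with 3 dKO libraries between 8.21 and 8.51 and every FGF21 KO library at 5.03 or below.

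Of 15729 genes tested, 2129 differed between dKO and FGF21 KO at an adjusted p under 0.01 (edgeR quasi-likelihood test), which is 13.5% of the genes. Of these, 1060 were higher in dKO (6.74%) and 1069 were lower (6.80%). The rises were the larger changes. The median log2 fold change was 1.08 among genes that rose and -0.47 among genes that fell, and 569 genes rose but 134 fell at least 2-fold. At least 8-fold, 116 genes rose and 3 fell. In 1797 of the called genes the 5 dKO libraries did not overlap with the 5 FGF21 KO libraries, as was the case for 2931 of all genes tested (18.6%). The count was 1275 with the muscle score as a covariate and 1381 without FGF21 KO replicate 4. It was 1873 without the 4 libraries of high muscle score, of which 1238 were among the 2129. The split depended on scaling. With library totals in place of trimmed-mean (TMM) factors, 90.9% of the called genes were higher in place of 49.8%, and the median log2 fold change of all genes was 0.23 in place of 0.0037. There 21 of the 2129 genes, all called lower with TMM, had estimates above 0. The counts of each gene list below are to be read against the 6.74% of all genes called higher and the 6.80% called lower.

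The largest rises included genes of amino acid and lipid metabolism. Mthfd2, the mitochondrial one-carbon enzyme, had 2.20, 2.01, 2.90, 2.32 and 2.81 CPM in FGF21 KO and 66.2, 66.1, 77.8, 40.2 and 64.2 CPM in dKO, a 25.7-fold rise (log2 4.68, SE 0.25, adjusted p 1.1e-09). Extl1, a glycosyltransferase gene of the exostosin family, rose from 0.226 to 0.375 CPM in FGF21 KO to 27.2, 13.5, 25.3, 23.5 and 17.3 CPM in dKO (75.3-fold, adjusted p 2.6e-07). It is among the genes at least 32 times higher in WT muscle than in WT BAT, was highest in the 3 dKO libraries of high muscle score, and stayed called with the covariate and without the 4 libraries (adjusted p 1.5e-06 and 3.8e-06). Slc7a11, the cystine transporter, had at most 0.0968 CPM in FGF21 KO, where no library exceeded 3 counts, and 1.18, 2.98, 2.41, 1.36 and 3.76 CPM in dKO. It was at least 26.0-fold higher. Tacr2, a tachykinin receptor gene, was likewise at or below 3 counts in FGF21 KO and at 3.85, 3.11, 1.53, 5.22 and 4.83 CPM in dKO, at least 41.3-fold higher. Groups that do not overlap were a condition for naming the largest rises and falls, so their separation is no result.

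Soat2, which esterifies cholesterol, was at 0.0323 to 0.118 CPM in FGF21 KO, a few counts per library. In dKO it was at 2.21, 2.85, 2.92, 3.65 and 3.05 CPM (30.6-fold in the fit, adjusted p 8.1e-07), a size limited by those low counts. Scd3, a stearoyl-CoA desaturase, rose 26.9-fold to 32.3 to 83.0 CPM, although the desaturase genes are near copies of each other and reads may be shared among them. Serinc2, also among the muscle-enriched genes, rose 26.3-fold to 5.997 to 12.15 CPM and Cpne5 36.8-fold to 3.25 to 26.2 CPM. A further 3 large rises, Tnnc1, Yipf7 and Cox6a2, were likewise highest in dKO libraries of high muscle score. Tnnc1, the troponin C of slow and cardiac muscle, was at 38.8, 0.942, 47.5, 11.5 and 1.73 CPM in dKO and was not called with the score as a covariate (adjusted p 0.20) or without the 4 libraries (adjusted p 0.076). Yipf7 was not called under these settings either (adjusted p 0.027 and 0.064). Cox6a2, the heart and muscle isoform of a cytochrome c oxidase subunit, was highest in dKO 1 and 3 at 32.2 and 31.1 CPM. It was still at 9.44 and 8.34 CPM in dKO 2 and 5, and it stayed called under both settings (adjusted p 0.00033 and 0.0017).

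**Figure D2:**
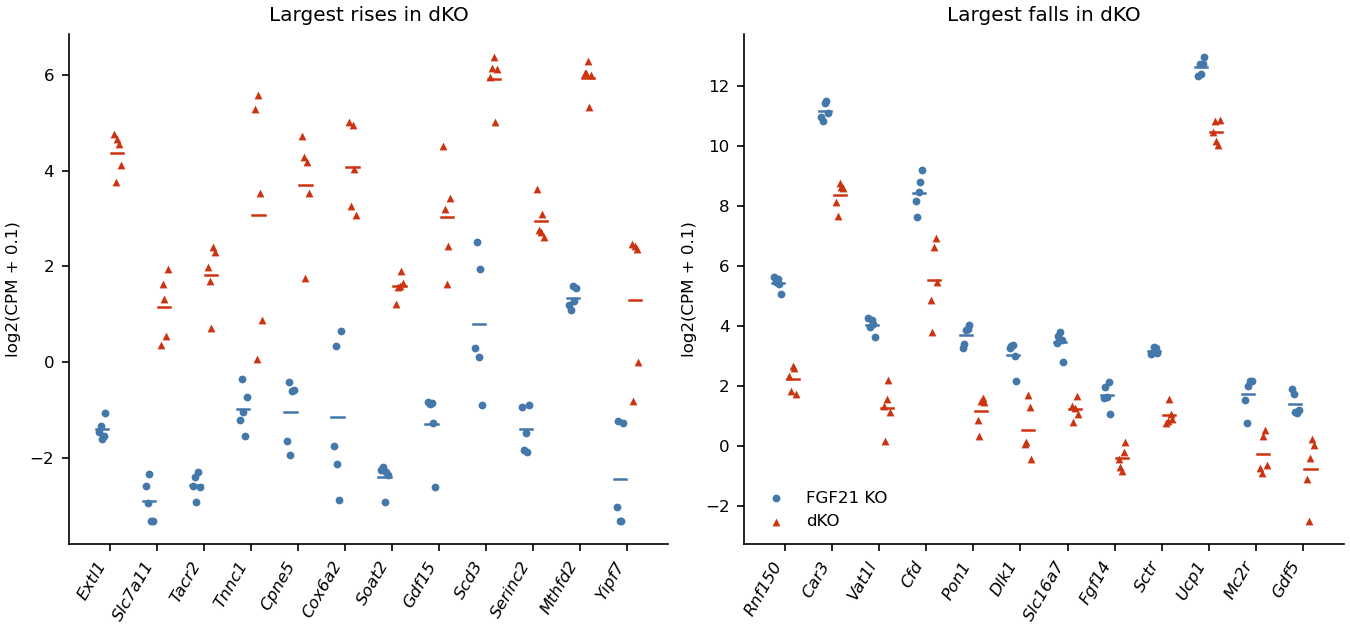
Level in log2(CPM + 0.1) (y axis) of the 12 called genes with the largest rises (left) and the 12 with the largest falls (right), 1 point per library and the mean as a line. The dKO libraries (triangles) lie wholly above or wholly below the FGF21 KO libraries (circles), as the rule for choosing these genes required, and the lowest points are libraries with 0 counts.

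The largest falls were led by Rnf150, a ring finger gene that lies 199 kb from Ucp1. It had 49.6, 44.7, 47.7, 42.1 and 33.6 CPM in FGF21 KO and 5.005, 3.453, 6.271, 6.07 and 3.28 CPM in dKO (9.05-fold lower, adjusted p 3.7e-06). Car3, a carbonic anhydrase abundant in adipocytes, was 6.80-fold lower, at 1842 to 2905 CPM in FGF21 KO and 204 to 436 CPM in dKO (adjusted p 8.4e-05). Cfd, which encodes the adipokine adipsin, was 6.08-fold lower, at 198 to 590 CPM against 14.1 to 122 CPM (adjusted p 0.0023). Dlk1, a preadipocyte factor, was 5.20-fold lower, and Mc2r, the receptor for adrenocorticotropic hormone, 4.27-fold lower. Sctr, the secretin receptor of brown adipocytes, was at 8.31 to 9.75 CPM in FGF21 KO and 1.61 to 2.85 CPM in dKO (4.46-fold, adjusted p 8.5e-07). Pon1, Vat1l, Slc16a7, Fgf14 and Gdf5 fell between 4.26-fold and 6.35-fold, and Gdf5 was not called without the 4 libraries (adjusted p 0.011).

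Of 45 integrated stress response and amino acid genes tested, 29 were called higher, 1 lower and 15 were not called, 64.4% higher against 6.74% of all genes, with a median log2 fold change of 0.89 against 0.0037. In 28 of the members the dKO libraries lay wholly above the FGF21 KO libraries, as they did in 1390 of all 15729 genes (8.84%). The count was 28 higher with the muscle score as a covariate and 25 without the 4 libraries, and 26 to 30 members were called when any 1 library was left out. ATF4 binds DNA with C/EBP partners at elements of the form TGATGNAA. The promoters of the 4 called members with the largest fold changes whose window holds this element on either strand are shown to give it in context. The windows are the RefSeq GRCm38.p6 promoters, here the 250 bases before the start site on the gene's strand and, for Trib3, also 30 bases after it, with the element in capitals. Slc7a11 lies on the minus strand (chr3:50443614-50443863), Trib3 on the minus strand (chr2:152344031-152344310), Chac1 on the plus strand (chr2:119350992-119351241) and Pycr1 on the minus strand (chr11:120643749-120643998).
Slc7a11: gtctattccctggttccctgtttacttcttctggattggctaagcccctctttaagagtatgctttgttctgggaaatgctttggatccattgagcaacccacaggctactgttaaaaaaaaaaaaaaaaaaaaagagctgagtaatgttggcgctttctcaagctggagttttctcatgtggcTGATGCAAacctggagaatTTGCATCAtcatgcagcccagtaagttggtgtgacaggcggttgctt
Trib3: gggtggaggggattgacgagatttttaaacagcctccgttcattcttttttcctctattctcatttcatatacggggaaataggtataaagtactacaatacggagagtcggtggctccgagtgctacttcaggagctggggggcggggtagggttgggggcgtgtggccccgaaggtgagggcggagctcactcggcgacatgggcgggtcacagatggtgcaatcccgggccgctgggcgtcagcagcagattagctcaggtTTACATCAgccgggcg
Chac1: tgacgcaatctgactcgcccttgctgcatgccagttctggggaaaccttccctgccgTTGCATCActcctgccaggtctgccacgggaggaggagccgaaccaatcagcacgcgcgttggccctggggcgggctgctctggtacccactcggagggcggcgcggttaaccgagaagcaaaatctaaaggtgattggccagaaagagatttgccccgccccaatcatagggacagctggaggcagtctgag
Pycr1: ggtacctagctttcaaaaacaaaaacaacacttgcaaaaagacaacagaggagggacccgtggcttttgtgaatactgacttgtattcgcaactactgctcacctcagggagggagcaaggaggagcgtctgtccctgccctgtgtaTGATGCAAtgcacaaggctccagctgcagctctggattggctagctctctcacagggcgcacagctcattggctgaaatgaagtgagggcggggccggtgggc

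Slc7a11 held 2 matches, the first starting 66 bases before the start site, and the other genes held 1 each. In Trib3 the match starts 14 bases after the start site, in Chac1 193 bases before it and in Pycr1 103 bases before it. A match occurred in 13 of the 36 list genes with a window (36.1%) and in 10 of the 24 called higher (41.7%), against 4.51% of all 27025 genes with a window and 2.88% of the 11153 tested genes with one. Counted by window, 13 of the list's 41 windows held a match, against 3.97% of all 32851 windows. Atf4, Ddit3, Mthfd2, Psat1, Aldh18a1 and Gdf15 had no match in their windows. A match describes the letters alone, and binding was not measured.

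Among the regulators of the response, Atf4 had 105, 130, 107, 103 and 103 CPM in FGF21 KO and 200, 185, 189, 193 and 207 CPM in dKO (log2 0.83, SE 0.12, adjusted p 0.00010). The dKO libraries were close to each other and all above the FGF21 KO libraries. Trib3, the pseudokinase that restrains the response, had 5.54, 5.45, 8.94, 7.89 and 8.35 CPM in FGF21 KO and 83.7, 68.0, 65.1, 103 and 98.8 CPM in dKO (11.6-fold, adjusted p 3.2e-06). Ddit3, which encodes CHOP, rose 2.87-fold from 13.8 to 29.4 CPM to 49.3 to 76.4 CPM (adjusted p 0.0056). Atf5 rose 2.85-fold and Atf3 5.11-fold. The glutathione-degrading enzyme Chac1 rose 7.84-fold, to 3.607 to 19.96 CPM. Without the 4 libraries Ddit3 and Atf3 were no longer called (adjusted p 0.028 and 0.031), at log2 fold changes of 1.53 and 1.97.

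Several enzymes of serine, one-carbon, proline and cysteine synthesis rose, some with large folds, while Mthfd1l and Cbs were not called (adjusted p 0.13 and 0.65). Psat1, of serine synthesis, rose 4.12-fold, Aldh18a1 and Pycr1, which make proline from glutamate, 4.92-fold and 5.74-fold, and Cth, which makes cysteine, 5.60-fold. Pycr1 was at 0.657 to 0.813 CPM in every FGF21 KO library and at 4.29, 4.13, 4.503, 4.22 and 3.43 CPM in dKO. Phgdh, which opens serine synthesis, was at 9.23 to 21.6 CPM in FGF21 KO and 14.5 to 22.2 CPM in dKO, and the groups overlapped (log2 0.23, SE 0.36, adjusted p 0.67). Asns, asparagine synthetase, had 58.5, 62.1, 57.6, 65.8 and 59.97 CPM in FGF21 KO and 136, 138, 125, 129 and 149 CPM in dKO (2.23-fold, adjusted p 2.9e-08).

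The amino acid transporters did not all move alike. Slc7a5, the large neutral amino acid transporter, rose 18.6-fold to 7.08 to 10.1 CPM. Slc1a5, the neutral amino acid carrier for glutamine, was instead 1.53-fold lower (adjusted p 0.0099), with overlapping groups, and was not called with the muscle covariate (adjusted p 0.017) or without the 4 libraries (adjusted p 0.012). Called tRNA synthetases included Aars and Gars, while Mars was not called (log2 -0.08, adjusted p 0.60). Aars rose from 85.8 to 96.8 CPM to 147 to 186 CPM (log2 0.89, SE 0.11), and Gars from 127 to 158 CPM to 218 to 282 CPM (log2 0.84, SE 0.11). Gdf15, the secreted stress signal of this list, had 0.461, 0.444, 0.452, 0.311 and 0.0626 CPM in FGF21 KO and 22.9, 9.08, 2.99, 5.30 and 10.6 CPM in dKO (28.8-fold, adjusted p 1.8e-05). Its dKO libraries spread widely, from 2.99 to 22.9 CPM.

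**Figure D3:**
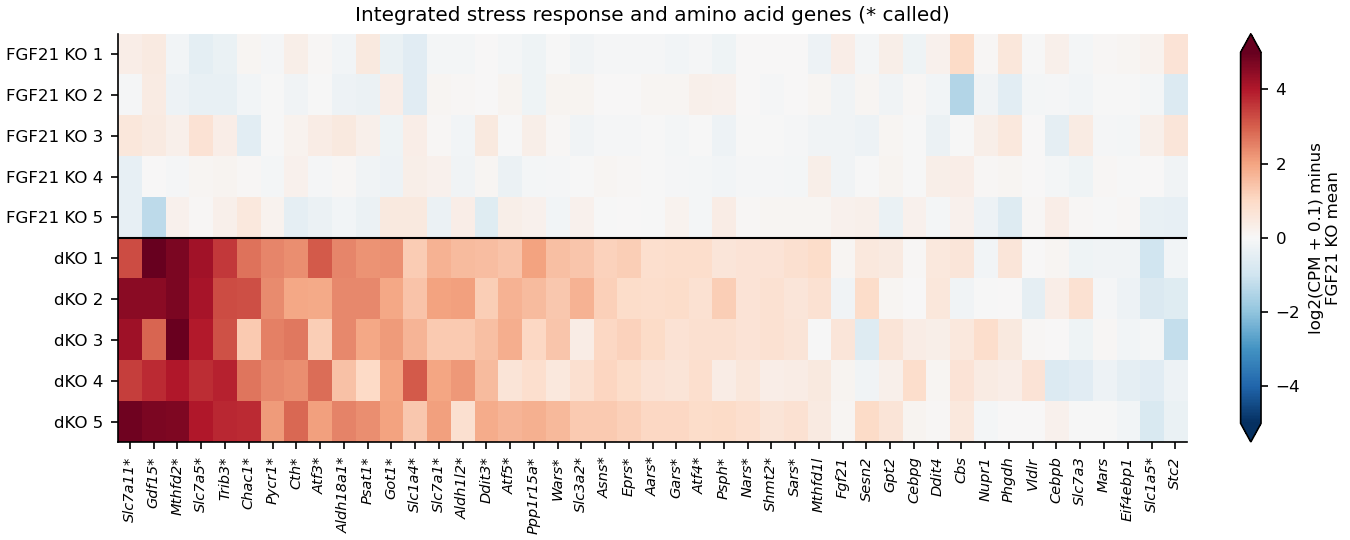
Integrated stress response and amino acid genes (columns) in each library (rows), colored by log2(CPM + 0.1) minus the mean of the FGF21 KO libraries, with called genes marked by an asterisk. The 5 dKO rows are red over the called genes with the largest rises. Called genes with small rises, such as Sars (log2 fold change 0.64), are pale and close in color to genes not called.

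Of 23 ER chaperone and unfolded protein response genes, 3 were called higher (13.04% against 6.74% of all genes) and 1 lower (median 0.12), a count not tested against that of the integrated stress response. Sdf2l1, Edem1 and Sel1l, of ER quality control, rose 1.89-fold, 1.49-fold and 1.46-fold, and Edem1 was not called with the muscle covariate (adjusted p 0.027) or without the 4 libraries (adjusted p 0.084). Sdf2l1 was not called with the covariate (adjusted p 0.012). Hspa5, the main ER chaperone, was at 250 to 310 CPM in FGF21 KO and 301 to 338 CPM in dKO (log2 0.22, SE 0.16, adjusted p 0.33).

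Among 19 mitochondrial chaperones and proteases, 2 were called higher and 2 lower, and with library totals 6 and 0. Lonp1, the matrix protease that is itself a target of ATF4, had 332, 310, 294, 312 and 315 CPM in FGF21 KO and 641, 668, 553, 376 and 585 CPM in dKO (1.81-fold, adjusted p 0.0056). Hspa9, the matrix chaperone mortalin, was at 1572 to 1956 CPM in FGF21 KO and 2272 to 2581 CPM in dKO (1.45-fold, adjusted p 0.0012). Trap1, the mitochondrial HSP90, was 1.29-fold lower (adjusted p 6.2e-05). Of 17 genes of mitochondrial dynamics and biogenesis, Nrf1 rose 1.42-fold and Bnip3, a mitophagy receptor, was 2.23-fold lower, and at most 1 of the 17 was called when any single library was left out. With the covariate neither was called (adjusted p 0.028 and 0.012).

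Antioxidant and glutathione genes went both ways, with 4 of 34 called higher (11.8% against 6.74% of all genes) and 7 lower (20.6% against 6.80%). The counts were 5 higher and 3 lower with the muscle covariate, 5 and 4 without the 4 libraries, and 11 and 3 with library totals. Gsta3, a glutathione transferase, rose 3.71-fold from 3.56 to 7.80 CPM to 8.65 to 31.7 CPM. Hmox1, heme oxygenase, rose 2.85-fold from 10.8 to 12.8 CPM to 25.7 to 49.3 CPM. Gpx3, the secreted glutathione peroxidase, was at 934 to 1813 CPM in FGF21 KO and at 316, 250, 397, 994 and 198 CPM in dKO (3.32-fold lower, adjusted p 0.0049). In dKO replicate 4 it overlapped with FGF21 KO, and with the muscle covariate it was not called (adjusted p 0.057).

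Of 21 genes of branched-chain amino acid catabolism tested, 11 were called lower and 0 higher, 52.4% lower against 6.80% of all genes, with a median of -0.40. With library totals, where the median of all genes was 0.23 and 274 of 15729 were called lower, 3 of the 21 were lower and 1 higher (median -0.18). The count was 7 with the muscle covariate and 7 without the 4 libraries. Ivd, isovaleryl-CoA dehydrogenase of leucine breakdown, had 240, 251, 230, 257 and 271 CPM in FGF21 KO and 141, 129, 149, 148 and 139 CPM in dKO (1.77-fold lower, adjusted p 6.5e-06). Pccb, a propionyl-CoA carboxylase subunit, was at 524 to 588 CPM against 360 to 418 CPM (1.45-fold lower). Bcat2, the first transaminase of the pathway, and Hsd17b10 were 1.58-fold and 1.57-fold lower. Bcat2 was not called with the muscle covariate (adjusted p 0.020). Bckdha, a subunit of the dehydrogenase complex, was at 526 to 656 CPM and 416 to 640 CPM and overlapped (adjusted p 0.52).

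Respiratory chain genes encoded in the nucleus had a median log2 fold change below that of all genes, by small folds, under either scaling of the libraries. Of 81 genes of complexes I to IV, cytochrome c and ATP synthase, 20 were called lower (24.7% against 6.80% of all genes) and 1, Cox6a2, higher, and the estimates of 70 were below 0 (median -0.17). Uqcrh of complex III had 628, 687, 675, 674 and 851 CPM in FGF21 KO and 377, 452, 398, 402 and 416 CPM in dKO (1.72-fold lower, adjusted p 6.5e-05). Ndufa4 was at 856 to 1030 CPM against 543 to 636 CPM (1.55-fold lower, adjusted p 0.00016). Every dKO library was below every FGF21 KO library for both.

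Ndufa1 of complex I, Uqcr11 of complex III, Cox6c of complex IV and Atp5k of ATP synthase fell 1.69-fold, 1.60-fold, 1.52-fold and 1.49-fold. The abundant catalytic subunit Atp5b was at 7283 to 8331 CPM and 6948 to 7965 CPM (adjusted p 0.73). The count of lower genes was 11 with the muscle covariate and 8 without the 4 libraries. It was 13 without dKO replicate 1 or 5 and 12 without FGF21 KO replicate 5. With library totals the median of these genes was 0.053, with 8 lower and 7 higher, beside a median of all genes of 0.23 and 274 lower and 2722 higher of 15729. In the citric acid cycle and pyruvate dehydrogenase list, 7 of 23 were called lower (2 with the covariate, 4 without the 4 libraries). With library totals 1 was lower and 2 were higher. Fh1, fumarase, was at 768 to 852 CPM against 525 to 612 CPM (1.40-fold lower), Idh2 was 1.46-fold lower and Idh3g 1.34-fold lower, the last 2 not called with the covariate (adjusted p 0.028 and 0.015). The median of this list was -0.11 and with library totals 0.12, in each case below the median of all genes. Of 22 genes of mitochondrial fatty acid oxidation only Echs1 was called (1.29-fold lower), and it was not called with the covariate (adjusted p 0.031) or without the 4 libraries (adjusted p 0.012). When any 1 library was left out, 0 to 1 of the 22 were called. With library totals 3 of the 22 were higher and 0 lower, at a median of 0.099 against 0.23 over all genes. Of 76 mitochondrial ribosomal protein genes, 3 were higher (3.95% against 6.74% of all genes) and 8 lower (10.5% against 6.80%), with Mrps21 lowest at log2 -0.55 and Mrps18b highest at log2 0.44 among the called. The counts were 4 higher and 2 lower with the muscle covariate and 3 and 2 without the 4 libraries. With library totals 28 were higher and 2 lower, at a median of 0.20 against 0.23 over all genes. Without FGF21 KO replicate 5, 7 of the 76 were called.

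Brown adipocyte identity and thermogenic genes were mostly not called. Of 29 tested, 3 were higher and 2, Ucp1 and Cox8b, lower (median -0.16, and 0.070 with library totals, beside 0.0037 and 0.23 over all genes). The counts were 3 higher and 4 lower without the 4 libraries, where Cox8b was not called (adjusted p 0.021). Elovl3, the fatty acid elongase induced by cold in BAT, had 71.4, 157, 48.9, 118 and 122 CPM in FGF21 KO and 799, 1084, 590, 290 and 1401 CPM in dKO (8.07-fold, adjusted p 4.5e-05). Acot2, a mitochondrial thioesterase, rose 2.94-fold, and Esrrb, an orphan receptor related to the oxidative regulator ERR alpha, rose 2.72-fold. Cidea, the lipid droplet protein of brown adipocytes, was at 1914 to 2401 CPM and 1780 to 2156 CPM (log2 -0.10, SE 0.15, adjusted p 0.65). Dio2, which activates thyroid hormone, was at 90.5 to 165 CPM and 81.8 to 254 CPM (adjusted p 0.68). Ppargc1a, the coactivator of mitochondrial biogenesis, was at 46.3 to 72.1 CPM in FGF21 KO and 81.5 to 128 CPM in dKO, without overlap but not called (log2 0.68, SE 0.31, adjusted p 0.11). Prdm16, Zic1, Cox7a1 and P2rx5 overlapped between groups (adjusted p 0.51, 0.78, 0.39 and 0.14).

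Some genes of adrenergic signaling fell, in a list whose median was -0.20 with TMM scaling and 0.029 with library totals, beside 0.0037 and 0.23 over all genes. Adrb3, the beta3-adrenergic receptor, had 511, 337, 364, 376 and 280 CPM in FGF21 KO and 208, 194, 179, 149 and 199 CPM in dKO (2.01-fold lower, adjusted p 0.0070). Adcy6, an adenylyl cyclase, and Pde3b, the phosphodiesterase of insulin action, were 1.61-fold and 1.51-fold lower, and these 3 were the called members of 26 adrenergic and cAMP genes. With library totals 1 of the 26 was called lower and 1 higher. Without the 4 libraries Adrb3, Adcy6 and Pde3b were not called (adjusted p 0.072, 0.024 and 0.038), at log2 fold changes of -0.93, -0.58 and -0.65, and with the covariate only Adcy6 was. Leaving out any 1 of 8 libraries, all but dKO replicate 4 and FGF21 KO replicate 5, left 1 called member. In insulin signaling, Igfbp3, Foxo1 and Akt2 were 3.14-fold, 1.79-fold and 1.31-fold lower, 3 of 17 members, and 1 of the 17 was called without FGF21 KO replicate 1 or 4. With library totals 1 of the 17 was lower and 0 higher. The median of this list was -0.22 with TMM scaling and 0.0014 with library totals, beside 0.0037 and 0.23 over all genes. Foxo1 and Akt2 were not called with the covariate (adjusted p 0.030 and 0.032) or without the 4 libraries (adjusted p 0.022 and 0.051). The glucose transporter Slc2a4 was not called (adjusted p 0.41).

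The FGF receptors and the genes induced by FGF signaling through ERK were examined because both genotypes lack the ligand. Of 19 tested, Fgf21 itself included, 0 were called higher and 1, Fgfr1, lower (5.26% against 6.80% of all genes), at 70.03 to 79.34 CPM against 42.4 to 58.4 CPM (1.42-fold lower, adjusted p 0.00080). Without dKO replicate 3, 2 members were called, and with library totals 4 were higher and 0 lower. Dusp5, an ERK phosphatase, was at 0.352 to 0.936 CPM in FGF21 KO and 2.88, 3.03, 0.566, 1.23 and 1.61 CPM in dKO, with overlap (log2 1.80, SE 0.50, adjusted p 0.012). It was called higher with the muscle covariate (adjusted p 0.0037) and without the 4 libraries (adjusted p 0.0088). The immediate early gene Fos was at 0.719 to 10.6 CPM and 1.93 to 42.7 CPM (log2 2.34, SE 0.86, adjusted p 0.049). Klb, which encodes beta-klotho, was at 51.6 to 67.3 CPM and 50.6 to 74.9 CPM (adjusted p 0.68). Etv5, an ERK-induced transcription factor, had 2.77, 3.05, 2.65, 2.63 and 2.72 CPM in FGF21 KO and 2.61, 2.20, 2.48, 2.06 and 2.42 CPM in dKO (log2 -0.23, SE 0.24, adjusted p 0.50). Spred1, an ERK feedback inhibitor, had 17.4, 20.3, 18.1, 16.9 and 17.4 CPM in FGF21 KO and 21.9, 21.1, 21.3, 28.8 and 26.8 CPM in dKO, without overlap but not called (log2 0.41, SE 0.13, adjusted p 0.023). Dusp4, Spry4 and Spred2 overlapped between groups, with log2 fold changes of -0.14, -0.07 and 0.07.

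Of 16 genes of proposed heat-producing cycles other than UCP1, 3 were called higher and 0 lower, also with the covariate and without the 4 libraries. Atp2a3, a calcium pump of the endoplasmic reticulum, had 15.2, 11.9, 13.6, 14.4 and 12.8 CPM in FGF21 KO and 71.3, 77.8, 64.1, 42.3 and 72.1 CPM in dKO (4.83-fold, adjusted p 2.2e-06). Atp2a2, the more abundant SERCA2 pump, rose 1.51-fold from 293 to 355 CPM to 397 to 576 CPM. Alpl, a phosphatase proposed to act on phosphocreatine, rose 1.93-fold. Ckmt2, the mitochondrial creatine kinase of muscle, was not called (adjusted p 0.019). It was at 77.5, 0.759, 73.3, 45.0 and 4.87 CPM in dKO, highest in the 3 dKO libraries with the highest muscle score. Its log2 fold change of 4.53 was 0.70 without the 4 libraries. Slc6a8, the creatine transporter, and Ryr2 overlapped between groups (adjusted p 0.96 and 0.38).

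Among 17 adipocyte differentiation genes and adipokines, 7 were called lower (41.2% against 6.80% of all genes), 0 higher and 10 were not called (median -0.52, and -0.30 with library totals), and 4 were lower without the 4 libraries. Adipoq, adiponectin, had 694, 621, 741, 839 and 830 CPM in FGF21 KO and 298, 423, 353, 366 and 414 CPM in dKO (2.01-fold lower, adjusted p 0.00038). Without the 4 libraries it was no longer called (log2 -0.83, adjusted p 0.013). Cebpa, a transcription factor of adipocyte differentiation, was at 400 to 474 CPM in FGF21 KO and at 222 to 249 CPM in dKO (1.88-fold lower, adjusted p 9.8e-05). Rbp4, retinol-binding protein, was 2.46-fold lower and Adig, adipogenin, 1.61-fold lower, and Rbp4 was not called under either muscle setting (adjusted p 0.015 and 0.033), at log2 fold changes of -1.33 in both against -1.30. Pparg, the master regulator of adipocyte differentiation, was not called (log2 -0.29, adjusted p 0.042), nor was the hormone gene Lep (log2 0.38, adjusted p 0.77). The general adipocyte gene Fabp4 was at 7149 to 8119 CPM and 7409 to 9354 CPM (adjusted p 0.71).

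Factors secreted by brown fat went both ways, with 3 of 21 higher and 2 lower. Bmp8b, the thermogenic bone morphogenetic protein of brown fat, had 0.527, 0.800, 0.484, 0.381 and 0.907 CPM in FGF21 KO and 14.7, 19.2, 7.21, 6.56 and 16.8 CPM in dKO (20.7-fold, adjusted p 2.6e-06). Epdr1, a secreted ependymin-related protein, had 3.21, 4.24, 4.94, 2.60 and 4.41 CPM in FGF21 KO and 24.5, 17.0, 23.6, 21.2 and 24.3 CPM in dKO (5.71-fold, adjusted p 2.6e-07). Every dKO library exceeded every FGF21 KO library for both, and Epdr1, a muscle-enriched gene, stayed called under both muscle settings. Gdf15 was the third that rose, and Adipoq and Rbp4 were those that fell. Nrg4, Slit2 and Pm20d1 were not called (adjusted p 0.20, 0.46 and 0.73). Vegfa was at 542 to 614 CPM in FGF21 KO and 363 to 526 CPM in dKO, without overlap but not called (log2 -0.26, adjusted p 0.096), and it was called lower without the 4 libraries (log2 -0.47, adjusted p 0.0034).

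Lipid synthesis and storage genes showed single changes rather than group changes. Of 23 genes of fatty acid and triglyceride synthesis, Me1 (malic enzyme, 2.68-fold) and Scd2 (1.87-fold) rose, and the calls were lost when most single libraries were left out, since 0 to 2 members were called. Scd1, the most abundant gene of the list, was at 61710 to 94170 CPM and 50360 to 86790 CPM (adjusted p 0.73). Fabp5, a fatty acid carrier, rose 3.03-fold and Plin2, a droplet coat protein, 1.96-fold, to 1062 to 3186 CPM, while Plin4 was 1.80-fold lower. Scd2 and Plin4 were not called under either muscle setting (adjusted p 0.018 to 0.039), and Me1 was not with the covariate (adjusted p 0.025). Without dKO replicate 5, 1 of these 26 lipolysis, droplet and uptake genes was called. Of 22 cholesterol genes, Sqle, Fdps and Lss, of sterol synthesis, rose 2.77-fold, 1.70-fold and 1.67-fold, and without dKO replicate 2 or FGF21 KO replicate 4 only 1 of the 22 was called. In dKO replicate 4 the levels of Sqle, Fdps, Plin2, Me1 and Fabp5 were the lowest of the 5 dKO libraries.

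Of 25 peroxisomal genes, the thiolase Acaa1b rose 2.89-fold and its near copy Acaa1a was 1.17-fold lower, a pair that may share reads, and Acaa1a was not called under either muscle setting (adjusted p 0.078 and 0.059). Without dKO replicate 4, 4 of the 25 were called, and 1 was called without dKO replicate 1 or FGF21 KO replicate 1, 3, 4 or 5. Without the 4 libraries 4 were higher and 1 lower, and with library totals 8 and 0. Few glucose-handling genes were called with all libraries. Hk1, a hexokinase, rose from 47.4 to 101 CPM to 110 to 186 CPM (1.92-fold, adjusted p 0.0013), and Pdk2 was 1.31-fold lower (adjusted p 0.043 and 0.036 under the muscle settings), out of 21 glycolysis and lactate genes. Of these, 4 were called without dKO replicate 4 and 1 without dKO replicate 2 or FGF21 KO replicate 1, 2, 4 or 5. Pygb, brain glycogen phosphorylase, was at 77.9 to 151 CPM against 58.9 to 70.9 CPM (1.90-fold lower, adjusted p 5.5e-05), and Gys1, glycogen synthase, was 1.29-fold lower, out of 14. Only 1 of the 14 was called when any single library other than dKO replicates 1, 4 and 5 was left out. Without the 4 libraries the glycolysis list had 5 higher and 0 lower and the glycogen and pentose phosphate list 3 higher and 1 lower. The counts of both lists with library totals were the same as these. Gys1 was not called with the covariate (adjusted p 0.023) or without the 4 libraries (adjusted p 0.051).

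Macrophage and inflammation genes leaned upward. Of 28 tested, 7 were called higher and 0 lower, 25.0% against 6.74%, and the estimates of 26 were above 0 (median 0.63). Lgals3, galectin-3, had 6.15, 7.05, 7.52, 8.48 and 4.38 CPM in FGF21 KO and 85.9, 72.9, 31.6, 17.7 and 56.6 CPM in dKO (7.89-fold, adjusted p 0.00012). Ccl2, a monocyte chemokine, rose 4.30-fold and Gpnmb, a marker of lipid-laden macrophages, 3.43-fold. Trem2 and Itgax, of lipid-associated macrophages, rose 3.08-fold and 2.85-fold to 1.44 to 3.43 CPM and 2.60 to 5.76 CPM. Trem2 was not called with the covariate (adjusted p 0.027), nor Ccl2 without the 4 libraries (adjusted p 0.022). Cd68, a general macrophage gene, rose from 5.84 to 8.27 CPM to 9.74 to 23.8 CPM (log2 1.13, adjusted p 0.0063), and Ctss, a lysosomal protease, from 11.4 to 19.8 CPM to 23.2 to 58.4 CPM (adjusted p 0.0076). Neither was called with the covariate (adjusted p 0.013 and 0.022). The macrophage genes Adgre1 and Csf1r were not called (log2 0.51 and 0.21, adjusted p 0.25 and 0.47). The count was 4 higher and 1 lower with the covariate and 7 higher without the 4 libraries. It was 3 without dKO replicate 2 or FGF21 KO replicate 1 or 3, and 4 without FGF21 KO replicate 2 or 5.

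Of 24 interferon and antigen presentation genes, 0 were called, although the estimates of 20 were above 0 (median 0.66). Values of dKO replicate 2 stood apart. Irf7, a regulator of the interferon response, had 8.33, 7.17, 13.1, 10.7 and 10.1 CPM in FGF21 KO and 11.2, 102, 9.69, 10.6 and 15.3 CPM in dKO (adjusted p 0.059), and Ifit3 had 71.6 CPM in dKO replicate 2 against 6.15 to 11.8 CPM in the other dKO libraries. Without the 4 libraries of high muscle score, where dKO is represented by replicates 2 and 5 alone, 8 of the 24 were called higher.

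Of 25 cell cycle genes tested, 11 were called higher and 0 lower, 44.0% against 6.74%, and 14 were not called, with a median of 0.78. Mki67, a proliferation marker, was at 1.502 to 2.395 CPM in FGF21 KO and at 8.56, 7.72, 2.45, 5.10 and 5.54 CPM in dKO (3.12-fold, adjusted p 0.00010). Top2a, Birc5 and Aurkb rose 3.39-fold, 3.79-fold and 3.14-fold. The count was 9 with the covariate, 11 without the 4 libraries, and 7 without dKO replicate 1 or 2 or without FGF21 KO replicate 4 or 5. Extracellular matrix genes had 6 of 32 called higher (18.8% against 6.74% of all genes) and 0 lower. Tnc, tenascin C, rose 3.13-fold and Thbs1, thrombospondin 1, 2.72-fold, while Sparc, the most abundant, rose from 897 to 1039 CPM to 1126 to 1248 CPM (1.21-fold). With the covariate 2 of the 32 were called, and Thbs1 was not called there (adjusted p 0.018) or without the 4 libraries (adjusted p 0.060), nor was Sparc (adjusted p 0.047 and 0.022).

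Among 17 angiogenesis genes, Aplnr rose 2.34-fold and Vegfb and Nrp1 were 1.501-fold and 1.47-fold lower, with 1 higher and 3 lower in all (17.6% against 6.80% of all genes) and 2 called without FGF21 KO replicate 1. The counts were 0 higher and 6 lower without the 4 libraries and 0 and 1 with the covariate. Aplnr and Nrp1 were not called under either muscle setting (adjusted p from 0.024 to 0.055). Of 7 pericyte markers 1 was called lower. Their summed level was 703 to 762 CPM in FGF21 KO and 555 to 612 CPM in dKO, their scores overlapped, and their part in these changes was not tested.

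Of 37 proteasome genes, 4 rose and 0 fell, and 26 were higher with library totals. Psmb5, the chymotrypsin-like subunit, was at 87.7 to 101 CPM in FGF21 KO and 132 to 245 CPM in dKO (2.11-fold, adjusted p 6.4e-06), while Psmc2 and Psmc6 rose 1.28-fold and 1.25-fold. Without dKO replicate 4, which had the lowest Psmb5 of dKO, 7 were called. Of 80 cytosolic ribosomal protein genes, Rpl38 (1.24-fold) and Rpl39l (2.51-fold) rose, Rpl38 not under either muscle setting (adjusted p 0.018 and 0.051). Rpl39l may share reads with copies of its family. Leaving out FGF21 KO replicate 2 or 3 left 1 call, and with library totals 11 were higher. Of 28 lysosomal and autophagy genes, Lipa, the lysosomal acid lipase, and Atp6v1h rose 1.60-fold and 1.43-fold, and 4 were called without dKO replicate 4. With library totals 8 of the 28 were higher and 0 lower. In the circadian clock list, 2 of 19 were called higher and 2 lower. The counts were 5 and 0 with library totals, 2 and 0 with the covariate and 1 and 1 without the 4 libraries. Cry1 was at 7.32 to 12.1 CPM in FGF21 KO and 21.6 to 25.3 CPM in dKO (2.62-fold, adjusted p 6.8e-07), Nfil3 rose 2.63-fold and Hlf was at 22.3 to 41.2 CPM and 10.7 to 19.8 CPM (adjusted p 0.0046). Hlf was not called with the covariate (adjusted p 0.019), nor Nfil3 without the 4 libraries (adjusted p 0.019). The core gene Nr1d1 overlapped (adjusted p 0.30). Without dKO replicate 5 or FGF21 KO replicate 1 or 2, 2 of the 19 were called.

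**Figure D4:**
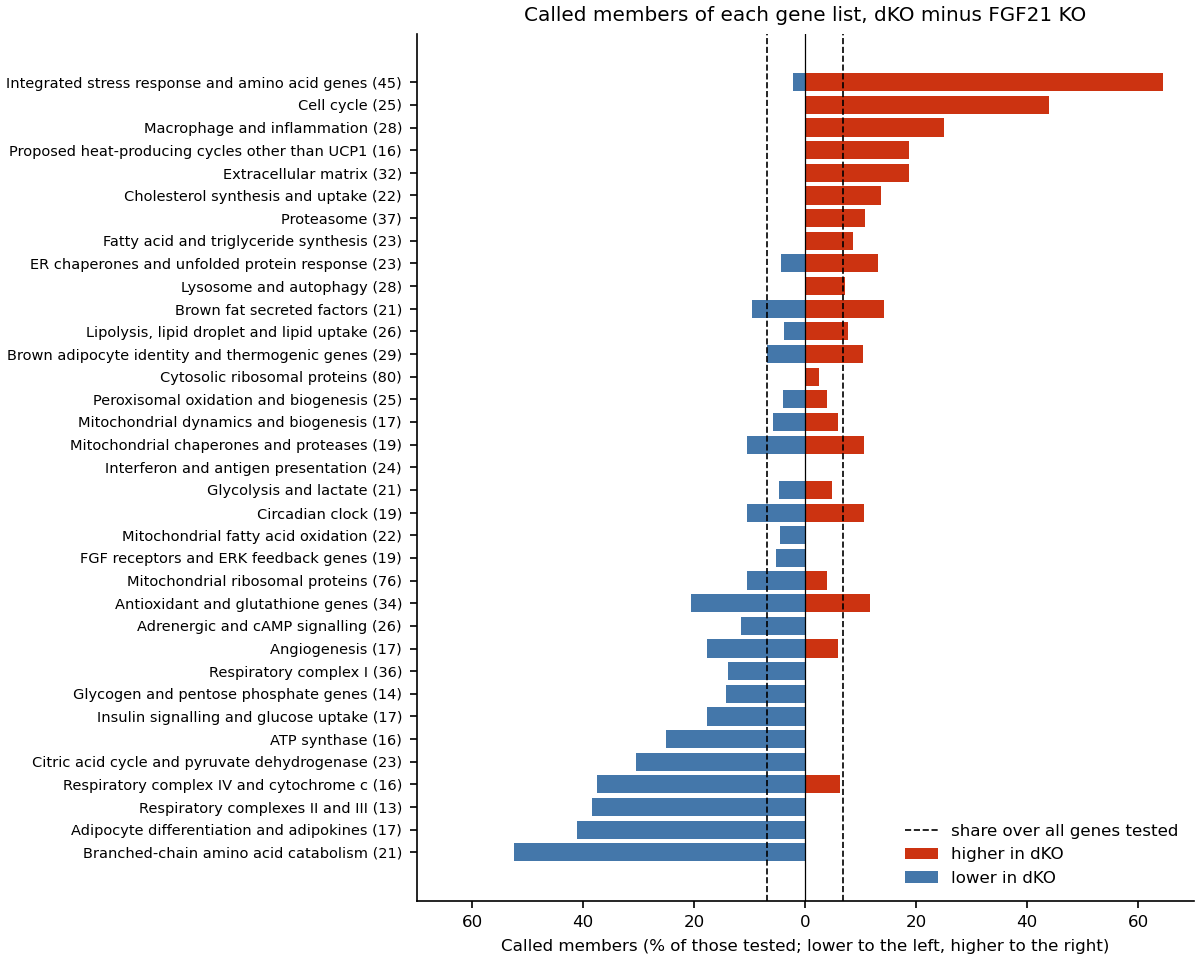
Share of tested members (number in parentheses) of each gene list called higher in dKO (bars to the right, %) or lower (bars to the left, %), with dashed lines at the shares over all genes, 6.74% and 6.80%. Integrated stress response genes reach 64.4% higher and branched-chain amino acid catabolism 52.4% lower, with TMM scaling. With library totals the medians of the citric acid cycle, complex I and ATP synthase lists are 0.12, 0.060 and 0.16, above 0 but below the 0.23 of all genes.

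Genes around Ucp1 were examined because the Ucp1 allele is the designed difference between the genotypes. Of 117 tested genes within 10 Mb of Ucp1 on chromosome 8, 13 were higher and 13 lower (22.2%), against 14.1% of 14103 genes elsewhere and 20.7% of 145 genes within 10 Mb of Fgf21, where both genotypes carry the deletion. Besides Rnf150, Scoc, 132 kb from Ucp1, was at 41.8 to 50.1 CPM in FGF21 KO and 22.0 to 26.4 CPM in dKO (1.90-fold lower, adjusted p 7.8e-07). Tbc1d9, 17.4 kb away, rose 2.32-fold and Gipc1, 354 kb away, 1.90-fold. Irx3 and Irx5, homeobox genes 8500 kb and 9059 kb away, rose 2.58-fold and 2.24-fold. Mylk3, 2026 kb away, was at 0 to 0.125 CPM in FGF21 KO and 0.157 to 0.461 CPM in dKO. With the covariate Mylk3 and Irx5 were not called (adjusted p 0.047 and 0.023), nor was Mylk3 without the 4 libraries (adjusted p 0.040). Sequence carried along with the deleted allele was not measured here.

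The response to UCP1 loss without FGF21 was set against the response with FGF21, UCP1 KO minus WT, which shares no library with it. There, 3965 of 15729 genes were called (25.2%), with 2169 higher (13.8%) and 1796 lower (11.4%). With library totals that comparison had 5235 higher and 455 lower. Of the 2129 genes called in dKO minus FGF21 KO, 1746 were also called in UCP1 KO minus WT, all in the same direction, which is 82.0% of the former and 44.0% of the latter. A further 375 of the remaining 383 had the same sign. In the 2169 genes called higher with FGF21 present, the median log2 fold change was 1.14 there and 0.71 without FGF21, and in the 1796 called lower it was -0.50 and -0.37. These genes were chosen for their size with FGF21 present, a choice that favors a larger value there. Calling genes in dKO minus FGF21 KO favors the other side. Of those 2129 genes, 893 had the larger absolute log2 fold change without FGF21.

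The difference between both responses was tested gene by gene as an interaction, and 0 genes passed an adjusted p under 0.01 with edgeR. At an unadjusted p under 0.05 there were 845, or 5.37% of the genes. With DESeq2, 1 gene passed (0.00636%), Fgf21 itself (adjusted p 0.0028), which is deleted on both sides of one response. The smallest edgeR value was that of Fut1, a fucosyltransferase gene 1.80 kb from Fgf21 on chromosome 7. Fut1 levels of 0.129 to 0.178 CPM in FGF21 KO overlapped with 0.115 to 0.283 CPM in dKO, while WT libraries had 0 to 0.0351 CPM and UCP1 KO libraries 0.387 to 0.960 CPM (edgeR interaction, adjusted p 0.010). The WT libraries held 0 or 1 counts, so no size is given for this difference.

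Named genes of the stress response had estimates in both settings. Trib3 rose by log2 3.54 without FGF21 and 4.79 with it, Gdf15 by 4.84 and 6.12, Slc7a5 by 4.22 and 5.003 and Mthfd2 by 4.68 and 4.75, and none of the interactions was called (adjusted p 0.90 to 1.00). In the stress response list without Fgf21 itself, 32 of 44 were higher and 1 lower with FGF21 present (median 1.30), beside 29 and 1 without it (median 0.99). In the list of FGF receptors and ERK feedback genes, leaving out Fgf21, 6 of 18 were higher and 1 lower with FGF21 present and 0 higher and 1 lower without it. Etv5 rose by log2 1.33 with FGF21 (interaction -1.56, SE 0.34, adjusted p 0.61) and Spred1 by 1.23 (interaction -0.81, SE 0.18, adjusted p 0.61). At an unadjusted p under 0.05, 7 of the 18 interactions passed, against 5.37% of all genes. Interferon genes had 17 of 24 higher with FGF21 present and 0 without it (4 interactions at an unadjusted p under 0.05), and macrophage genes 20 of 28 and 7 of 28 (8 interactions). Apart from Fgf21 with DESeq2, no interaction in these lists passed the adjusted threshold.

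**Figure D5:**
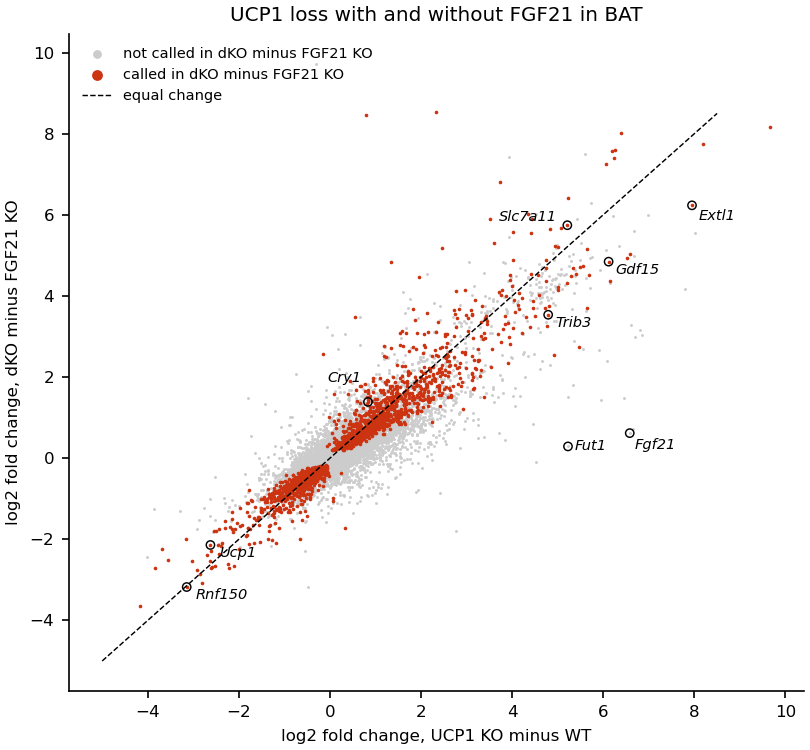
Log2 fold change of each tested gene in UCP1 KO minus WT (x axis) and in dKO minus FGF21 KO (y axis), with genes called in the latter in red and equal change as a dashed line. Most red points share the sign of both axes, and Fgf21 and Fut1 lie far to the right. On the x axis Fgf21 rose from 7 to 10 counts per library in WT to 353 to 1728 in UCP1 KO. Its y position is no measured fold, because no library of dKO or FGF21 KO exceeded 3 counts. Nor is the x position of Fut1, which had few or no counts in WT.

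Genes typical of other fat depots and of muscle were drawn from the WT libraries, independent of dKO and FGF21 KO. Of 406 genes at least 4 times higher in WT BAT than in WT inguinal white fat, 67 were lower in dKO (16.5% against 6.80% of all genes) and 15 higher (3.7% against 6.74%). The counts were 39 and 15 with the muscle covariate and 49 and 16 without the 4 libraries. Of 395 genes at least 4 times higher in WT inguinal fat, 45 were higher (11.4% against 6.74% of all genes) and 0 lower. The counts were 24 and 1 with the muscle covariate and 89 and 1 without the 4 libraries. There the remaining dKO replicates 2 and 5 had lymph node scores of 0.23 and 0.44. The other dKO libraries had -1.58 to -0.56 and the FGF21 KO libraries -1.56 to -1.02. The part of lymph node cells in these counts was not tested. Of 343 genes at least 32 times higher in WT muscle than in WT BAT, 60 were higher (17.5% against 6.74% of all genes) and 0 lower. With the covariate 14 were higher, and without the 4 libraries 14. These lists were not counted with library totals.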

How the data were processed

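RNA of BAT was sequenced as stranded, poly(A)-selected paired-end libraries. Per the labels and the study's methods, the authors aligned reads to mm10 with STAR and deposited the number of reads per UCSC known gene as raw counts from HTSeq-count, without normalization. Whether HTSeq-count used strand is not given in the sources used here. A row without a name held at most 11 counts per library and was left out.

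The 20 BAT libraries of 4 genotypes were fitted together with edgeR 4.0.16 (R 4.3.3), using TMM factors, quasi-likelihood tests and Benjamini-Hochberg adjustment, and genes were called at an adjusted p under 0.01. Genes needed a highest count above 15, a sum above 75 and at most 10 libraries at 0, which left 15729 of 32764. DESeq2 1.42.0 served as an alternative. The fit without the 4 libraries of high muscle score, and a count of calls that leaves out muscle-enriched genes, were added after seeing the data. Positions were taken from GENCODE (mm10) and promoters from RefSeq.

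Named genes were the 12 largest rises and falls among called genes of at least 2 CPM whose groups did not overlap, up to 3 called members and the most abundant member of each list, up to 8 called genes near Ucp1 and the genes the study names. Other named genes, among them Spred1, Etv5, Irf7, Ifit3, Fut1 and Fabp4, were chosen after their values were seen. Members, lists and markers were chosen with earlier results of these data known. No pair of replicates among 40 was identical. Counting error grows as counts fall, so values near 3 counts per library are bounds.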

Additional observations from a re-analysis of the deposited data

Results flagged for a closer look

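Among 96 groups of 5 libraries checked for single distant values (36 genes and the marker scores), 4 exceeded Dixon's critical ratio of 0.71. This is no more than the rate of about 1 in 20 that chance gives. Gdf15 was lowest in FGF21 KO replicate 5 (ratio 0.769), Soat2 lowest in FGF21 KO replicate 3 (0.778) and Atf4 highest in FGF21 KO replicate 2 (0.818). Irf7 was highest in dKO replicate 2 (0.806). The responses to UCP1 loss with and without FGF21 differed for Fgf21 itself with DESeq2 (adjusted p 0.002844), the gene deleted on both sides of one of them.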

How the results depend on the processing

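The count of 2129 genes became 1275 with the muscle score as a covariate, 222 when tested against a fold of 1.5 and 4405 at an adjusted p under 0.05. It was 3065 with DESeq2, 2996 with library totals, 2086 with RLE factors, 1807 with no low-count filter, 1941 with only both genotypes fitted, and 1381 (without FGF21 KO replicate 4) to 2304 (without dKO replicate 4) with 1 library left out. For UCP1 KO minus WT, the count of 3965 was 2612 with only both genotypes fitted, 659 against a fold of 1.5, 6395 at an adjusted p under 0.05 and 3091 to 4682 with 1 library left out. The interaction count of 0 was 1 with DESeq2, 1 at an adjusted p under 0.05 and 0 to 1 with 1 library left out, the 1 being found without UCP1 KO replicate 2 or 3. Leaving the muscle-enriched genes out of the calls left 2069. With library totals, 21 of the 2129 genes, none of them named here, changed sign, as did the medians of several lists. Of 141 named genes that were called, 39 were not called with the covariate, 24 with library totals and 102 against a fold of 1.5. The cause of these shifts was not tested.

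No paired analysis was possible because the labels give no replicate numbers that link libraries across genotypes. Mitochondrially encoded genes were not found under their usual names, so leaving them out was not run. Genes at a few counts per library, such as Slc7a11, Tacr2 and Soat2 in FGF21 KO, are limited by depth.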
